A study of Bos taurus with 12 samples.

Results

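COL1A1, OGN, THY1, PDGFRA and VIM, 5 genes commonly used to mark stromal fibroblasts, were followed in the bovine endometrium, the inner lining of the uterus. The probes of these genes were found by the gene name, accession or description in the scanner files. These are 5 of the 6768 gene symbols that could be assigned to the array, and each was represented by 1 probe. No measured value entered the choice of probe, since no gene had a second one. Biopsies were taken in consecutive years from cows of the Japanese-Black breed, each at estrous cycle day 15. The season named summer was early September and the season named autumn was mid-November. In each season the uterine horn next to the ovary with the corpus luteum (CL side) and the opposite horn (non-CL side) were sampled. The corpus luteum is the progesterone-secreting body that forms after ovulation. The 4 groups were CL-side summer, non-CL-side summer, CL-side autumn and non-CL-side autumn, with 3 arrays each and 12 in all. No group received a treatment named in the labels. The labels do not say whether arrays of a group, or the horns of a season, came from separate cows, so the p-values measure the spread between these samples, which may in part be technical.

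Stromal fibroblasts fill the endometrium beneath the surface and glandular epithelium, hold up the glands and vessels, and secrete the matrix around them. Through the estrous cycle they carry receptors for progesterone and estrogen and signal to the epithelium. COL1A1 and OGN belong to the matrix that these cells secrete, THY1 and PDGFRA to their surface, and VIM to their cytoskeleton. None of the markers is unique to fibroblasts. THY1 also occurs on some lymphocytes and vessel cells, and VIM occurs in endothelium and leukocytes as well.

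Levels are given as log2 of the array's processed signal relative to the 75th percentile of that array, so that 0 is the 75th percentile and a difference of 1 is a doubling. They compare arrays for 1 probe and not one gene with another. The 75th-percentile signal of 11 arrays was between 3516 and 4418, while CL-side summer replicate 2 had 2007 and is referred to as the dim array. The median correlation of the dim array with the others over all probes was 0.951, and all pairs among the other 11 arrays correlated at 0.98 or more. All 6 summer arrays and the first autumn pair lay on 1 slide, and the other 4 autumn arrays on a second slide. All 15 epithelial markers on the array and all 17 other stromal markers on it were measured, 14 and 17 of them well above background on every array. So were 11189 of all 15208 probes, so this detection is no check of the labelled tissue. Results are given with and without the dim array.

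The probe sequences are shown because each gene rests on a single probe. They are printed from the scanner files, 5′ to 3′, as up to 30 bases of the 60-base probe except for COL1A1, which is whole. Capitals mark AATAAA, the polyadenylation signal motif that lies near the 3′ end of many transcripts.
COL1A1: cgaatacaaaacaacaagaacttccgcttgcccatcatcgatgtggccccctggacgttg
OGN: atcactgctttagaAATAAAgtctgaaggg
THY1: agaatactgtacAATAAAaccaagcctctg
PDGFRA: tgtgaagtacatgcaaaaccacttttgaac
VIM: ccaacacccgtaatagatttagaaaaaagt
The OGN stretch covers bases 31 to 60 of its probe, the THY1 stretch bases 27 to 56, and those of PDGFRA and VIM bases 1 to 30. AATAAA was found in 2 of the 5 probes in the printed direction, as in 11.3% of all probes on the array, and its reverse complement TTTATT in 0 of the 5. On either strand, 14.9% of all probes held it. The GC content was 51.7% for the COL1A1 probe, 35.0% for those of OGN, PDGFRA and VIM and 38.3% for that of THY1, beside a median of 43.3% over all probes. The files name no genome build or position for these probes.

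COL1A1 encodes the α1 chain of type I collagen, the main fibre of connective tissue. On the CL side its log2 level was −3.75, −3.62 and −2.56 in summer and −1.2, −1.84 and −2.31 in autumn, for replicates 1, 2 and 3 in that order, which holds for the other genes too. On the non-CL side it was −3.5, −2.64 and −2.56 in summer and −2.42, −3.08 and −2.84 in autumn. All 3 CL-side autumn arrays lay above the other 9, and the other groups overlapped one another. The group means were −3.31 ± 0.66 (SD, n = 3) for CL-side summer, −2.9 ± 0.52 for non-CL-side summer, −2.78 ± 0.34 for non-CL-side autumn and −1.78 ± 0.56 for CL-side autumn. The probe had no saturated or flagged spot and stood well above background on 12 of 12 arrays.

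OGN encodes osteoglycin (mimecan), a small leucine-rich proteoglycan that associates with collagen fibrils. In CL-side summer it measured −5.56, −6.08 and −4.2, and in CL-side autumn −3.46, −3.59 and −3.98. The non-CL-side arrays gave −5.31, −5.45 and −4.32 in summer and −5.03, −4.8 and −5.1 in autumn. As for COL1A1, the CL-side autumn arrays were the highest 3 of the 12. The means ran from −5.28 ± 0.97 (SD, n = 3) in CL-side summer through −5.03 ± 0.62 in non-CL-side summer and −4.98 ± 0.16 in non-CL-side autumn to −3.68 ± 0.27 in CL-side autumn, and the first 3 of these lay within their spread. OGN was well above background on 11 arrays and not on the dim array, where its processed signal was 29.7 with a reported error of 11.7. The authors' value for OGN on the dim array was −4.09 in place of −6.08.

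THY1 encodes the GPI-anchored surface glycoprotein CD90. CL-side levels were 2.56, 2.27 and 3.29 in summer and 3.37, 4.29 and 3.63 in autumn. The non-CL side had 2.78, 2.88 and 3.08 in summer and 3.67, 3.11 and 2.97 in autumn. The lowest autumn array of the CL side stood 0.08 above the highest summer array of that side, while non-CL-side autumn replicate 1 lay inside the CL-side autumn range. Group means were 2.71 ± 0.53 (SD, n = 3) in CL-side summer, 2.92 ± 0.16 in non-CL-side summer, 3.25 ± 0.37 in non-CL-side autumn and 3.76 ± 0.47 in CL-side autumn, and neighbours in this order overlapped.

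PDGFRA encodes the α receptor for platelet-derived growth factors, a tyrosine kinase of mesenchymal cells. On the CL side it measured −4.44, −6.22 and −3.92 in summer and −3.33, −3.32 and −3.53 in autumn. The non-CL side gave −4.37, −3.72 and −3.83 in summer and −3.75, −4.11 and −3.45 in autumn. The value of −6.22 belonged to the dim array, where the processed signal was 26.9 with an error of 9.8, and it set the SD of the CL-side summer mean (−4.86 ± 1.21, n = 3). Without that array the mean of the other 2 was −4.18, and the authors' value on it was −4.35. Non-CL-side summer had −3.97 ± 0.35, non-CL-side autumn −3.77 ± 0.33 and CL-side autumn −3.39 ± 0.12 (SD, n = 3 each). Each group overlapped its neighbour in this order.

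VIM encodes vimentin, the intermediate filament protein of mesenchymal cells. It had the narrowest range of the 5, 2.35-fold between the lowest and the highest array against 4.05-fold to 7.48-fold for the others. The CL-side arrays measured 2.6, 2.68 and 2.87 in summer and 3.22, 3.82 and 2.87 in autumn, and the non-CL-side arrays 2.82, 2.84 and 2.65 in summer and 2.77, 2.85 and 2.59 in autumn. CL-side autumn replicates 1 and 2 stood above the other 10 arrays, and CL-side autumn replicate 3 was level with the highest summer array. Means were 2.71 ± 0.14 (SD, n = 3) in CL-side summer, 2.74 ± 0.14 in non-CL-side autumn, 2.77 ± 0.11 in non-CL-side summer and 3.3 ± 0.48 in CL-side autumn, and the first 3 lay within their spread.

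**Figure D1:**
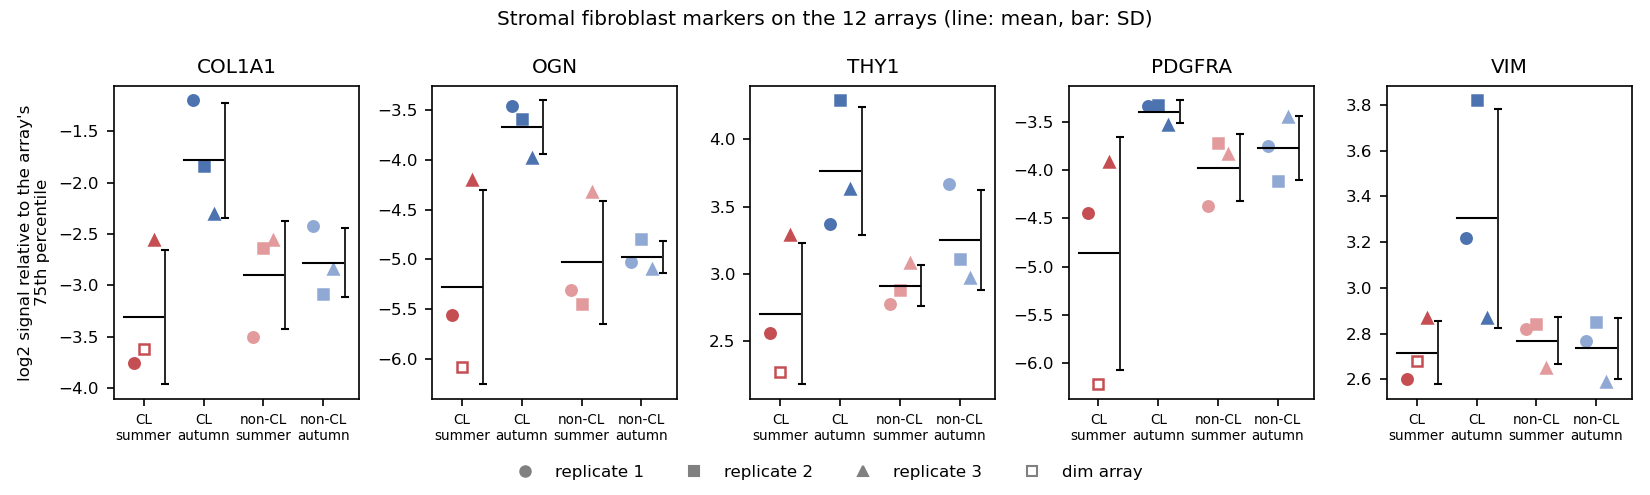
Log2 signal of the 5 stromal fibroblast markers (relative to each array's 75th percentile, 1 panel per gene, each with its own axis) on the 12 arrays by group, with the replicate as the symbol, the dim array open, a line for the mean and a bar for the SD. CL-side autumn has the highest mean in every panel, and the dim array is the lowest point for OGN (−6.08), THY1 (2.27) and PDGFRA (−6.22).

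The first comparison was of summer with autumn on the CL side, where all 5 markers had lower means in summer. COL1A1 was 2.88-fold lower, with a log2 difference (summer minus autumn) of −1.53 ± 0.39 (SE; 95% interval −2.4 to −0.65). OGN had −1.6 ± 0.44 (−2.58 to −0.63), THY1 −1.06 ± 0.31 (−1.74 to −0.37), PDGFRA −1.47 ± 0.48 (−2.53 to −0.41) and VIM −0.59 ± 0.22 (−1.07 to −0.11). For COL1A1, OGN, THY1 and PDGFRA the summer arrays all lay below the autumn arrays, as did 5.02% of 12303 probes, and for VIM they overlapped. The gaps between the groups were 0.25, 0.22, 0.08 and 0.4 in that order.

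In limma's two-sided test over all probes the unadjusted p-values were 0.00283, 0.00419, 0.00629, 0.0111 and 0.0212, in the order COL1A1, OGN, THY1, PDGFRA and VIM. The Benjamini-Hochberg adjusted p was 0.496 for each, so 0 of 5 passed the threshold of 0.05, as did 0 of 12381 probes (0.0%). At an unadjusted p under 0.05, 5 of 5 markers were lower in summer, as were 439 of 12381 probes (3.55%), and 1228 probes differed in either direction. The markers were chosen with earlier results of these data known, so this and the later counts of markers are not independent support. The median difference was −1.47 over the 5 markers and 0.02 over all probes. In a biopsy, fewer cells of a type and less RNA per cell cannot be told apart, and this holds for every difference here.

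Without the dim array the differences on the CL side were −1.37 for COL1A1, −1.2 for OGN, −0.84 for THY1, −0.79 for PDGFRA and −0.57 for VIM. Their unadjusted p-values were then 0.012, 0.0179, 0.0269, 0.0123 and 0.044 and their adjusted p 0.84 by limma, where 2.06% of 12370 probes were lower in summer at an unadjusted p under 0.05. The median over the 5 was −0.84 without the dim array and −1.9 without CL-side summer replicate 3. VIM had −0.33 without CL-side autumn replicate 2. With slide as a block the differences were −2.0 for COL1A1, −1.68 for OGN, −1.07 for THY1, −1.51 for PDGFRA and −0.56 for VIM, with unadjusted p-values of 0.00109, 0.0148, 0.0244, 0.0358 and 0.0721 by limma. Within the first slide, where autumn is a single array, the 5 genes had −2.11, −1.82, −0.66, −1.53 and −0.5, with p-values of 0.0104, 0.0569, 0.156, 0.118 and 0.0651. With array weights the p of OGN was 0.0603 and that of VIM 0.0553, so the count of 5 of 5 did not hold under these settings.

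On the non-CL side the same season comparison gave small differences for every marker. They were −0.12 ± 0.39 (SE) for COL1A1, −0.05 ± 0.44 for OGN, −0.34 ± 0.31 for THY1, −0.21 ± 0.48 for PDGFRA and 0.03 ± 0.22 for VIM. The 95% intervals were −0.99 to 0.76, −1.02 to 0.92, −1.02 to 0.35, −1.26 to 0.85 and −0.45 to 0.51. All groups overlapped, the adjusted p was 1 for each by limma, and 0 of 5 markers and 1.12% of 12383 probes had an unadjusted p under 0.05. With slide as a block COL1A1 had −0.59, and within the first slide THY1 had −0.76.

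Between the horns in summer, the means of all 5 markers were lower on the CL side, and the groups overlapped for each marker. The differences (CL minus non-CL) were −0.41 ± 0.39 (SE) for COL1A1, −0.25 ± 0.44 for OGN, −0.21 ± 0.31 for THY1, −0.89 ± 0.48 for PDGFRA and −0.05 ± 0.22 for VIM. Their 95% intervals were −1.28 to 0.46, −1.22 to 0.72, −0.9 to 0.48, −1.95 to 0.17 and −0.54 to 0.43. None passed limma's threshold (adjusted p of 0.984 to 0.992), and 0 of 5 had an unadjusted p under 0.05, as had 1.41% of 12389 probes. Without the dim array the values were −0.26, 0.15, 0.01, −0.21 and −0.04, so OGN and THY1 had the other sign and PDGFRA a smaller difference.

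Between the horns in autumn, the means of all 5 markers were higher on the CL side. OGN was 2.47-fold higher, with a log2 difference of 1.3 ± 0.44 (SE; 95% interval 0.33 to 2.28). COL1A1 had 1.0 ± 0.39 (0.13 to 1.87), VIM 0.57 ± 0.22 (0.08 to 1.05), THY1 0.51 ± 0.31 (−0.18 to 1.2) and PDGFRA 0.38 ± 0.48 (−0.68 to 1.43). For OGN, COL1A1 and VIM every CL-side array lay above every non-CL-side array, by gaps of 0.82, 0.11 and 0.02, as for 2.35% of 12302 probes. THY1 and PDGFRA overlapped between the horns.

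The unadjusted p-values of limma for the autumn horns were 0.0136 for OGN, 0.0286 for COL1A1, 0.0254 for VIM, 0.13 for THY1 and 0.448 for PDGFRA, and the adjusted p was 1 for each. With the replicate number as a block, which pairs the horns, they were 0.00027, 0.00472, 0.0179, 0.134 and 0.464, and the adjusted p was 0.989 or more. At an unadjusted p under 0.05, 3 of 5 markers were higher on the CL side, as were 99 of 12378 probes (0.8%). The dim array is in neither autumn group. Within the second slide, which holds 2 of the 3 autumn pairs, the differences were 1.17 for OGN, 0.89 for COL1A1, 0.62 for VIM, 0.92 for THY1 and 0.35 for PDGFRA. VIM had 0.31 and THY1 0.25 without CL-side autumn replicate 2.

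The test of whether the season difference itself differed between the horns is the interaction, the CL-side difference minus the non-CL-side one. It was −1.41 ± 0.56 (SE; 95% interval −2.64 to −0.18) for COL1A1 and −1.55 ± 0.62 (−2.93 to −0.18) for OGN, with unadjusted p-values of 0.0288 and 0.0306 by limma. THY1 had −0.72 ± 0.44 (−1.69 to 0.25), PDGFRA −1.27 ± 0.68 (−2.76 to 0.23) and VIM −0.62 ± 0.31 (−1.3 to 0.06), with unadjusted p-values of 0.131, 0.0893 and 0.0697. With the replicate block the p-values were 0.00475 for COL1A1, 0.000718 for OGN, 0.135 for THY1, 0.11 for PDGFRA and 0.0475 for VIM (adjusted p 0.912). Without it the adjusted p was 0.999 for all 5, so by either fit a difference between the horns in the season effect did not pass the test. At an unadjusted p under 0.05, 2 of 5 were lower, as were 77 of 12375 probes (0.622%).

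Without the dim array the interaction was −1.26 for COL1A1, −1.15 for OGN, −0.5 for THY1, −0.59 for PDGFRA and −0.6 for VIM, and 0 of 5 had an unadjusted p under 0.05, beside 0.485% of 12367 probes that were lower by that rule. Without CL-side autumn replicate 2 THY1 had −0.46 and VIM −0.36. Within the first slide the interaction of THY1 was 0.1. The comparisons share groups, since CL-side autumn enters the season, side and interaction values alike.

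**Figure D2:**
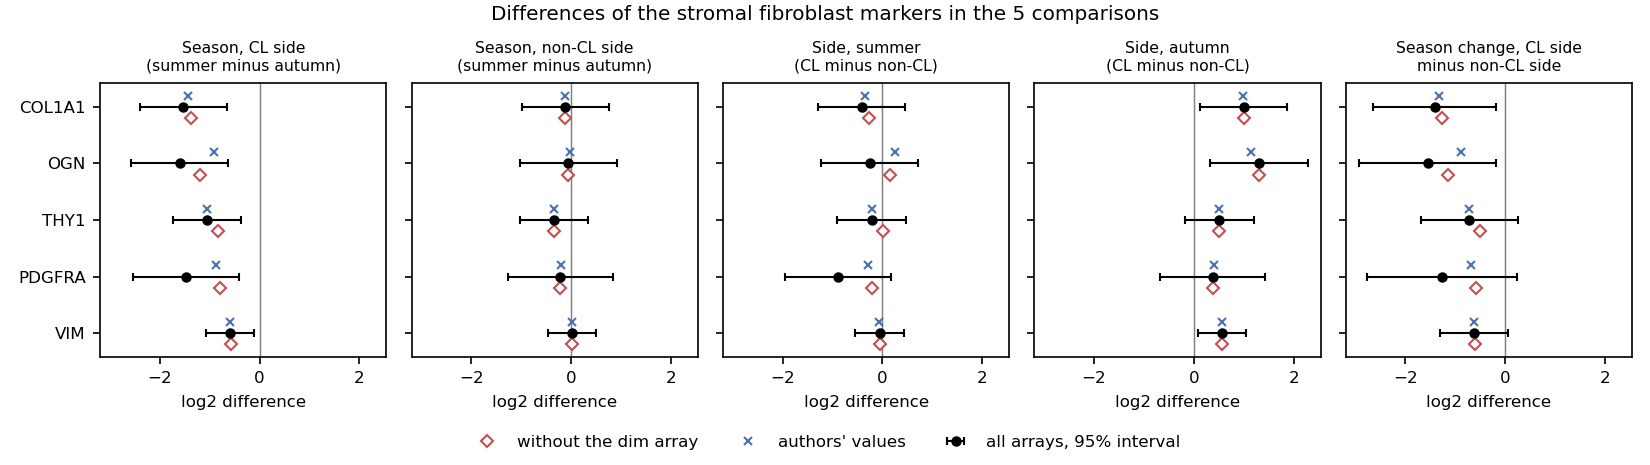
Log2 difference of each marker in the 5 comparisons, with the 95% interval over all arrays (filled circles), the value without the dim array (open diamonds) and the value from the authors' table (crosses). On the CL side all 5 intervals of the season difference lie below 0 (PDGFRA −2.53 to −0.41), while on the non-CL side all 5 include 0, and no adjusted p passed the threshold in any panel.

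The 5 markers varied together over the 12 arrays to different degrees. As a description over arrays that share groups and possibly animals, Pearson's r between pairs was highest for COL1A1 with OGN (0.87, and 0.84 without the dim array) and lowest for PDGFRA with VIM (0.41 and 0.53). COL1A1 with PDGFRA had 0.72, and 0.87 without the dim array. Each gene was then centred on its mean over the 12 arrays and the 5 were averaged on each array. This average was 0.8, 0.95 and 0.42 in CL-side autumn and −0.64, −1.12 and 0.18 in CL-side summer. It lay between −0.44 and 0.13 on the 6 non-CL-side arrays. CL-side summer replicate 3 thus lay just above the non-CL-side arrays and below CL-side autumn, apart from the other 2 arrays of its group.

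Of 31 other stromal and mesenchymal genes listed, 17 were measured, and the list resembled the 5 markers in direction. On the CL side their median season difference was −0.66, with 15 of 17 below 0, and −0.43 without the dim array with 16 of 17 below 0, beside 47.0% and 46.5% of all probes. By the unadjusted p under 0.05, 6 were lower in summer and 0 higher with or without the dim array, beside 3.55% and 2.06% of all probes that were lower. By limma's adjusted threshold 0 passed, and this list too was chosen with earlier results of these data known. FSTL1, a secreted follistatin-like glycoprotein, had −0.97 ± 0.28 (SE), SPARC, a collagen-binding matrix protein, −0.93 ± 0.29, and PRRX1, a mesenchymal homeobox factor, −0.5 ± 0.17. COL3A1, the chain of type III collagen, had −1.1 ± 0.45 and −0.43 without the dim array. The 2 genes above 0 were NT5E, the ectonucleotidase CD73, at 2.16 and COL6A2, a chain of type VI collagen, at 0.03, both named after their values were seen. In autumn 17 of 17 had higher means on the CL side (median 0.4), beside 42.6% of all probes (median −0.04). Only 1 of them had an unadjusted p under 0.05, beside 0.8% of all probes. With the dim array left out, which enters only the shared spread, 5 had. The share of all probes under that setting is not given here, so the rise is not a result about this list. On the non-CL side the season median was 0.01.

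COL1A2, the partner chain of COL1A1 in type I collagen, measured −0.06, −2.55 and 0.85 in CL-side summer and 0.99, 1.33 and 1.16 in CL-side autumn. The summer arrays lay below those of autumn, and the dim array was by far the lowest. The difference was −1.75 ± 0.65 (SE; adjusted p 0.496 by limma) and −0.77 without the dim array, beside −1.53 and −1.37 for COL1A1.

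The list of type I collagen assembly and turnover, which also holds COL1A2, had 16 measured genes, of which SERPINH1 had no CL-side autumn value once flagged spots were left out. Over the other 15 the median season difference on the CL side was −0.57, and −0.34 without the dim array. In both, 12 were below 0, beside 47.0% and 46.5% of all probes. At an unadjusted p under 0.05, 5 were lower and 0 higher, and 2 were lower without the dim array, beside 3.55% and 2.06% of all probes. FKBP10, a collagen chaperone of the endoplasmic reticulum, had −0.92 ± 0.27 (SE) and −0.7 without the dim array, LOXL1, a lysyl oxidase-like crosslinking enzyme, −1.23 ± 0.42 and −0.83, and PPIB, a prolyl isomerase that helps collagen fold, −0.4 ± 0.16 and −0.34. The prolyl hydroxylase subunits P4HA1 and P4HB, which hydroxylate procollagen and were named outside the rule given below, had −0.08 and 0.1. The non-CL-side median was 0.09 with 12 of 16 above 0.

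Of the small leucine-rich proteoglycans, the family of OGN, 11 were measured, and 7 were below 0 on the CL side, beside 47.0% of all probes. Their median was −0.08, beside 0.02 over all probes. At an unadjusted p under 0.05, 2 were lower and 1 higher, beside 3.55% and 6.37% of all probes. Without the dim array 10 of 11 were below 0, beside 46.5%, with a median of −0.15. By that rule 1 was then lower, beside 2.06% of all probes, and 0 were higher, where 678 of 12370 probes differed in either direction. BGN (biglycan) had −0.71 ± 0.25 (SE), FMOD (fibromodulin) −0.5 ± 0.21, LUM (lumican) −0.66 ± 0.34 and DCN (decorin) −0.48 ± 0.24, all 4 being proteoglycans that bind collagen fibrils. DCN and LUM, which the list of other stromal markers also holds, had −0.15 and −0.25 without the dim array. PRELP, another member of the family, had 0.86 ± 0.39 in scanner values and −0.1 in the authors' values, so its direction depends on the source of the values. OGN itself was at −1.6, and KERA (keratocan), named after its value was seen, was at −1.63 with an unadjusted p of 0.244.

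Of 7 measured genes for PDGF ligands, receptors and adaptors, 4 were below 0 on the CL side, beside 47.0% of all probes. Their median was −0.05 (−0.06 without the dim array), beside −1.47 for PDGFRA. PDGFC, a ligand of PDGFRA, had 0.87 ± 0.38 (SE) in summer against autumn and 0.32 without the dim array, where it measured 2.33 against 0.17 to 0.94 on the other 11 arrays. The adaptor PIK3R1, a regulatory subunit of PI3-kinase, had −0.5 ± 0.26, and −0.26 without the dim array. PDGFRL, a receptor-like gene, had 0.06 ± 0.54, but −0.64 without the dim array and −0.2 in the authors' values. PDGFRL was at −7.28, the floor set for low signals, on replicate 1 of CL-side summer and of non-CL-side summer. Of these 7, 0 were lower and 1 was higher at an unadjusted p under 0.05, beside 3.55% and 6.37% of all probes. Without the dim array 0 passed in either direction, beside 678 of 12370 probes.

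Of 7 measured genes of the vimentin network and mesenchymal factors, 5 were below 0 on the CL side, beside 47.0% of all probes (median −0.29). Without the dim array 7 of 7 were below 0, beside 46.5% of all probes (median −0.4). SNAI2, a repressor of epithelial genes, had −1.09 ± 0.46 (SE) and −0.53 without the dim array, and CDH2, N-cadherin, had −0.8 ± 0.44 and −0.24. DES, desmin, the muscle relative of vimentin, had 0.24 ± 0.94 and −0.69 without the dim array. The binding partners of THY1, mostly integrin subunits and signalling proteins, had a median of 0.05 over 7 genes, with 0 at an unadjusted p under 0.05. Over all probes 3.55% were lower and 6.37% higher by that rule. ITGB5, an integrin β subunit, was at 0.82 ± 0.37 and FYN, a Src-family kinase, at −0.2 ± 0.17.

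Markers of other cells were measured beside the stromal ones. Epithelial genes had a median season difference of 0.67 on the CL side, and 0.46 without the dim array. With all arrays 13 of 15 were above 0, beside 53.0% of all probes. At an unadjusted p under 0.05, 4 of 15 were higher in summer, beside 6.37% of 12381 probes. Without the dim array 1 of 15 was, where 678 of 12370 probes differed in either direction. Averaged in the same way on each array, the epithelial genes ranged from −0.14 to 1.19 in CL-side summer, with 1.19 for the dim array. In CL-side autumn they ranged from −0.35 to −0.24. SPINT1, an epithelial serine protease inhibitor, had 1.24 ± 0.34 (SE), and MUC1, an epithelial surface mucin, 1.11 ± 0.44. Squamous epithelial markers ranged from 0.14 to 1.93 in CL-side summer and from −0.88 to −0.5 in CL-side autumn over 5 genes, with 4 genes well above background on every array.

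Granulocyte genes averaged 0.95 to 2.2 in CL-side summer and −0.94 to 0.01 in CL-side autumn, with a median difference of 1.99 over 5 genes and 1.6 without the dim array. Of these, 4 of 5 were higher at an unadjusted p under 0.05, beside 6.37% of all probes. Without the dim array 1 of the 5 was, where 678 of 12370 probes differed in either direction. S100A8, a calcium-binding protein of neutrophils, had 1.99 ± 0.47 (SE), and CXCR1, a chemokine receptor that was well above background on 8 of 12 arrays, 2.1 ± 0.9. On CL-side autumn replicates 1 and 2 CXCR1 was at −7.28, the floor set for low signals. Its difference was 0.63 in the authors' values, so its size depends on how low signals are treated. Genes of dividing cells averaged 0.86, 1.61 and −0.24 in CL-side autumn, while the remaining 9 arrays had −0.39 to −0.14. Their median season difference on the CL side was −1.05 over 9 genes. The 2 arrays with high division genes, CL-side autumn replicates 1 and 2, were also those with the highest stromal mean. Immediate early genes were at −0.39 to 1.51 in CL-side summer and −1.0 to −0.1 in CL-side autumn.

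The endothelial median was −0.02 over 10 genes and that of leukocytes 0.24 over 12. Smooth muscle and pericyte genes had 0.24 over 9 genes and −0.37 without the dim array. Averaged on each array, they ranged from −1.22 on non-CL-side autumn replicate 3 to 1.47 on CL-side autumn replicate 1, with 1.32 on the dim array. CL-side autumn replicate 1 was also the highest array for COL1A1 and OGN. Of 4 blood genes on the array 2 were measured (median 0.2), and the haemoglobin gene HBA was well above background on no array. The part of epithelium, granulocytes, dividing cells, immediate early genes and smooth muscle in the stromal differences was not tested. The dim array had the highest epithelial mean. Without it the epithelial median on the CL side was 0.46, with 12 of 15 genes above 0, beside 53.5% of all probes. Replicates 1 and 3 of CL-side summer had epithelial means of −0.03 and −0.14. The 5 stromal differences without the dim array were between −1.37 and −0.57.

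**Figure D3:**
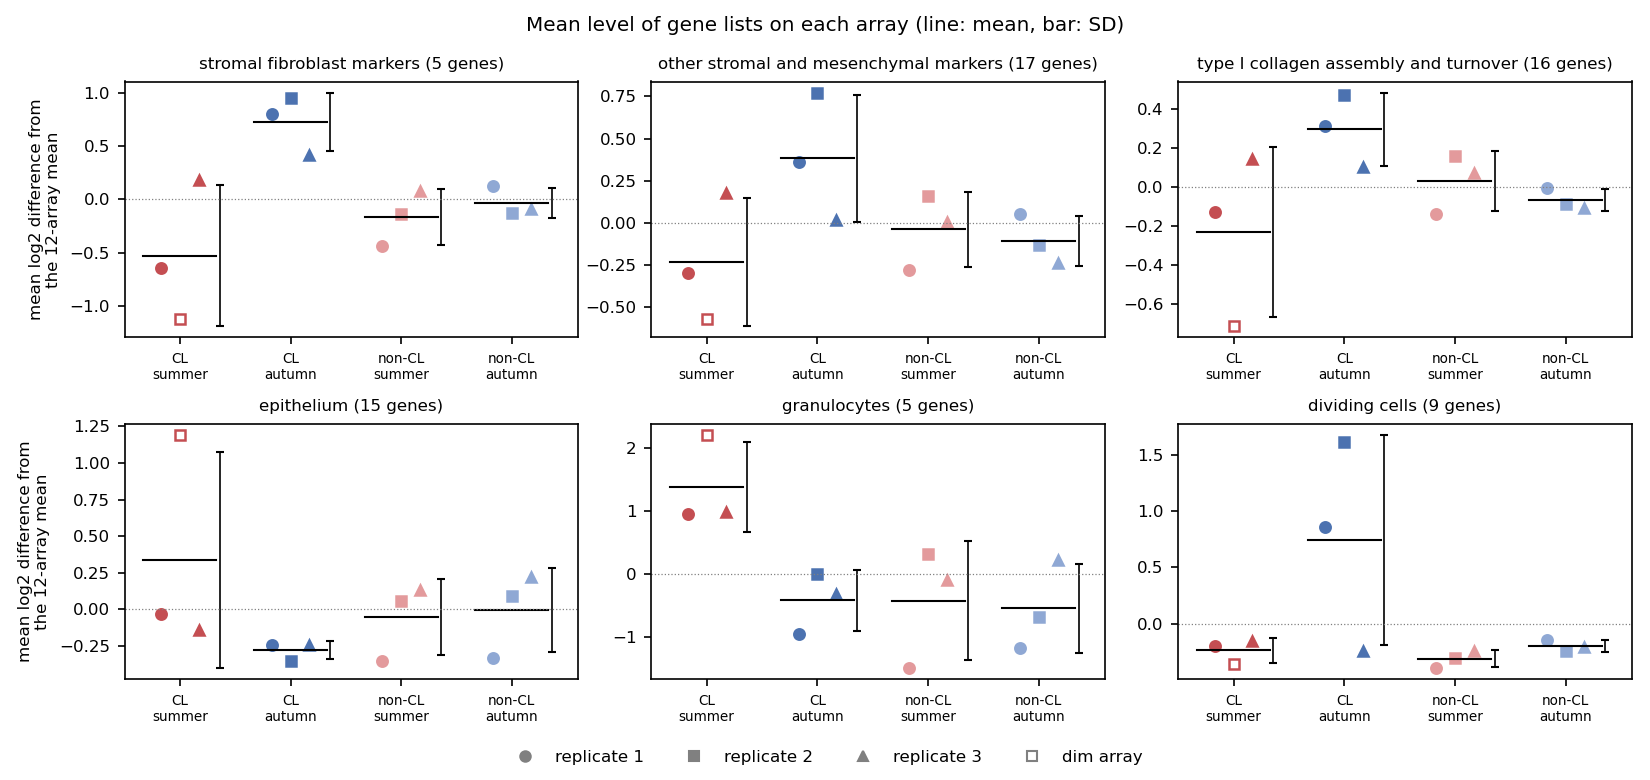
Log2 levels centred on each gene's mean over the 12 arrays and averaged over the genes of 6 lists (1 panel each, with its own axis), for each array by group, with the dim array open, a line for the group mean and a bar for the SD. The stromal markers are highest in CL-side autumn (0.42 to 0.95), the granulocyte genes in CL-side summer (0.95 to 2.2), and the genes of dividing cells on CL-side autumn replicates 1 and 2.

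Among 5285 other named genes well above background on all 12 arrays, those most like the mean of the 5 markers were ranked by Pearson's r over the 12 arrays. The highest was IGFBP6, which binds insulin-like growth factors, at 0.97 and 0.95 without the dim array. It was followed by FSTL1 (0.96 and 0.95), SPARC (0.95 and 0.94), MXRA5, a matrix-remodelling-associated gene (0.94 and 0.91), STMN1, the microtubule regulator stathmin (0.93 and 0.89), and FKBP10 (0.92 and 0.9). SRPX2 and BGN had 0.92, and LRRC17 and GLT8D2 0.91. Of these 10, FSTL1, SPARC, FKBP10 and BGN were on the matrix and stromal lists and STMN1 on the list of dividing cells. At the other end stood EAF1 at −0.96 and −0.95 without the dim array, followed by ZNHIT2 at −0.93, TNIP1 and the epithelial gene SPINT1 at −0.92, and DDRGK1 at −0.91. Over the 12 arrays 12 genes had an r over 0.9 and 7 an r under −0.9, over groups that the genes share.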

How the data were processed

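Each of the 12 biopsies was hybridised to a 1-colour Agilent bovine array from 400 ng of total RNA labelled with Cy3, per the labels' protocols. The deposited files hold background-corrected spot intensity values from Feature Extraction 9.5.1.1, per the file headers. A value table on the log2 scale came from the authors as well, whose scaling and treatment of low signals are not given in the sources used here; the column medians were −2.79 to −2.61, its correlation with the scanner values on the same array was 0.961 to 0.99, and it served as an alternative.

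Control spots and 466 values with outlier flags were left out. Processed signals were divided by each array's 75th percentile, floored at −7.28 on the log2 scale (2.06% of kept values) and tested as log2. Of 15208 probes, 12404 well above background on every array of at least 1 group were kept, and 2804 were not. Of all probes, 7105 had a symbol from the files or RefSeq names, 54 a locus name only and 8049 none. Between 79.2% and 84.1% of probes stood well above background on an array. Arrays carry no counts, so their number limits the precision.

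1 model of 4 group means was fitted with limma 3.58.1 (R 4.3.3) over all kept probes and all 12 arrays, with Benjamini-Hochberg adjustment and a threshold of 0.05. The steps were tested on simulated data. Alternatives were quantile normalization, normexp (offset 50), the authors' values, other filters, array weights, each array left out, slide as a block, each slide alone and a replicate block. Titles number the samples 1 to 3. Deviations from group means correlated at 0.139 to 0.5 for same-numbered horns of a season (6 pairs) and at −0.417 to 0.031 for other numbers. Across seasons they correlated at 0.11 to 0.345 and at −0.268 to 0.044. Deviations within a group of 3 sum to 0, so the values for same and other numbers are not independent. In autumn, number 1 also lay on the first slide and numbers 2 and 3 on the second. The replicate block treated the numbers as pairs, while the main fit, with its intervals and p-values, did not. The labels do not say what a number stands for.

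The markers and lists were chosen with earlier results of these data known. Always named were the 5 markers; of each list around them, up to 4 genes with the smallest unadjusted p on the CL side plus family partners; of each list of other cells, up to 3; and the 10 most and 5 least alike genes.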

Additional observations from a re-analysis of the deposited data

How the results depend on the processing

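No marker passed limma's adjusted threshold in any of 515 values under alternatives (smallest adjusted p 0.0827), and the 5 season differences on the CL side stayed below 0 in all of them. The median over the 5 on the CL side was −1.08 with normexp, −0.91 with the authors' values and −0.8 with array weights, which gave the dim array a weight of 0.14, and −1.9 to −0.84 when leaving out 1 array (the main value was −1.47). For the interaction the medians were −0.88, −0.72 and −0.81, and −1.73 to −0.6 when leaving out 1 array. For the horns in summer, leaving out 1 array gave −0.79 to −0.04.

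In 22 of the 515 values the sign turned, in the non-CL-side season comparison, between the horns in summer and, for THY1, in the interaction. On the non-CL side array weights gave 0.22 for COL1A1, 0.16 for OGN, 0.01 for PDGFRA and −0.04 for VIM, and the first slide alone 0.01 for OGN and −0.0019 for VIM. Leaving out 1 array gave −0.29 to 0.18 for COL1A1, −0.4 to 0.16 for OGN and −0.04 to 0.09 for VIM there. Between the horns in summer OGN had 0.25 with the authors' values, and array weights gave 0.03 for OGN, 0.01 for THY1 and 0.05 for VIM. Leaving out 1 array gave −0.79 to 0.15 for OGN, −0.5 to 0.01 for THY1 and −0.13 to 0.0037 for VIM. The interaction of THY1 on the first slide alone was 0.1. The cause was not tested.

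Limma called 0 probes in each comparison, and 1228, 139, 175, 230 and 233 had an unadjusted p under 0.05, in the order CL-side season, non-CL-side season, summer horns, autumn horns and interaction. Leaving out 1 array gave 0 to 7 calls on the CL side (2 without CL-side summer replicate 1, 4 without CL-side summer replicate 3, 7 without CL-side autumn replicate 3), 0 to 1 between the horns in summer and for the interaction (1 without CL-side summer replicate 3 in both) and 0 to 6 in autumn (6 without CL-side autumn replicate 3). The first slide alone gave 1 call on the non-CL side.

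With the replicate block, the numbers as pairs, 0 probes were called in any comparison, 1602, 244, 420, 528 and 550 had an unadjusted p under 0.05, and no call changed. The median on the CL side stayed at −1.47. The authors' values moved the median of all probes by 0.1 between the horns in autumn, where 39.5% of differences were below 0 against 57.2%, and 58.8% against 46.9% on the CL side and 40.9% against 51.0% between the horns in summer. Since each marker has 1 probe, another probe of the same gene could not be tried, and without a second slide for summer the season comparison could not be made on it. OGN and PDGFRA were dim on CL-side summer replicate 2, so their values there are the least certain.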
